A study of Drosophila melanogaster with 4 samples.

Results

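A set of 384 wide regions was examined in which wing discs with GFP-tagged Osa and wing discs without GFP both gave a called anti-GFP peak, away from the ends of genes. They were part of 9599 regions obtained by merging, wherever they overlapped by 1 bp or more, the called peaks of 4 CUT&RUN libraries on the chromosome arms 2L, 2R, 3L, 3R, 4 and X. The members were selected on peak positions: each contained peaks from Osa-GFP replicates 1 and 2 and from yw replicate 2, and none from yw replicate 1. Each was at least 800 bp wide, and its centre lay more than 500 bp from both ends of every protein-coding gene. Peak calls in the 4 libraries, the width and the distance therefore chose the members, and what is said of these is description and carries no test.

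The study compared female Drosophila melanogaster of genotype Osa-GFP, in which the Osa protein carries GFP, with yw females, which have no GFP for the antibody to bind. Each genotype had 2 libraries, and every library was made with a Rockland rabbit anti-GFP antibody. Discs were taken from wandering larvae at the end of larval life raised at 25 °C, with 20 to 22 wing discs pooled per replicate, and the DNA released into the supernatant was made into libraries with the Takara ThruPLEX kit. Whether the pools derive from separate crosses is not given in the labels. Differences between replicates may therefore be technical, and a pool does not show differences between animals. Peak lists carry no expression values, so the labelled tissue could not be checked against marker genes. The titles were used as corrected in an update of the record.

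SWI/SNF complexes use ATP to move or evict nucleosomes and so open DNA at enhancers and promoters. Osa, a large protein with an ARID DNA-binding domain, marks the BAP form of the fly complex, which is known in the wing disc for its part in patterning, growth and the response to Wingless and EGFR signals. In CUT&RUN a nuclease is brought to chromatin by an antibody and cuts nearby DNA, and a library from animals with no GFP records the fragments released without the antibody's target. A region with a yw peak is therefore one where fragments were released without tagged Osa as well.

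Depth differed between the control libraries. The background recovered from the authors' folds was 0.472 (replicate 1) and 0.460 (replicate 2) fragments over a position for Osa-GFP, against 0.120 (replicate 1) and 0.481 (replicate 2) for yw. The lists held 5820 and 4987 peaks in the Osa-GFP libraries and 774 and 4535 in the yw libraries. yw replicate 1 thus stood apart as the shallow library, at a depth 4.0 times below that of yw replicate 2, and the absence of its peak from every member has to be read against that depth. At 285 of the 384 members (74.2%, 95% Wilson interval 69.6% to 78.3%) the yw replicate 2 fragments, divided by this depth ratio, fell below 3, which was the fewest at the summit of any yw replicate 1 peak. At the remaining members the divided fragments reached 3 or more, and by the rule these held no yw replicate 1 peak either. The division takes no account of chance variation in fragment counts. Whether depth accounts for the absence of yw replicate 1 peaks was therefore not tested. When yw replicate 1 was left out of the rule, 517 regions qualified and all 384 members were among them. When yw replicate 2 was left out instead, 518 regions qualified and 345 members were found again. With 2 libraries per genotype there are 6 ways to assign them and no exact two-sided p below 0.333 can be had, so no test was run. Regions and genes are not replicates, and intervals on shares cover counting error only.

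Of the 3344 regions with peaks of both Osa-GFP libraries, 1283 held a peak of yw replicate 2 and not of yw replicate 1, and 432 of these reached 800 bp. The members were the 384 of the 432 that lay away from gene ends. Among all 705 wide regions of both Osa-GFP libraries away from gene ends, they stood beside 171 with no yw peak, 137 with peaks of both yw libraries and 13 with a peak of yw replicate 1 alone. The narrowest members were 802 bp wide, 1 near dpp and 1 in Dyrk2, followed by a region in sbb of 803 bp. The widest regions left out for their width, near CG32192, scyl and simj, measured 798, 797 and 795 bp. The members closest to a gene end were centred 513 bp from Akt, 517 bp from Fur1 and 528 bp from Hsp27, and the closest regions left out lay 489, 487 and 479 bp from Dok, CG32259 and kmr.

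Most members held 1 called peak per library: 324 in Osa-GFP replicate 1, 290 in Osa-GFP replicate 2 and 277 in yw replicate 2. The median member was 1135 bp wide, with quartiles of 958 and 1451 bp and a widest of 4146 bp. Called peaks covered a median of 93.6% and 83.9% of a member's width in Osa-GFP replicates 1 and 2, against 34.3% in yw replicate 2, or 993, 940.5 and 427.5 bp in the same order. More than 50% of the width was covered in 363 and 348 members by the Osa-GFP libraries and in 125 members by yw replicate 2. A single peak of 800 bp or more was present in 276 members in Osa-GFP replicate 1 and in 217 in Osa-GFP replicate 2, against 28 in yw replicate 2. Both Osa-GFP lists held such a peak at 174 members, or 45.3%. In most members the width did not depend on yw peaks joining Osa-GFP ones: the Osa-GFP peaks of 360 members (93.8%) met in 1 stretch with the yw peaks left out, and in 355 members (92.4%) the Osa-GFP peaks alone covered at least 800 bp. Over the whole lists, too, the median peak was narrower for yw, at 266 and 268 bp in the Osa-GFP libraries, against 194 and 209 bp in those of yw.

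**Figure D1:**
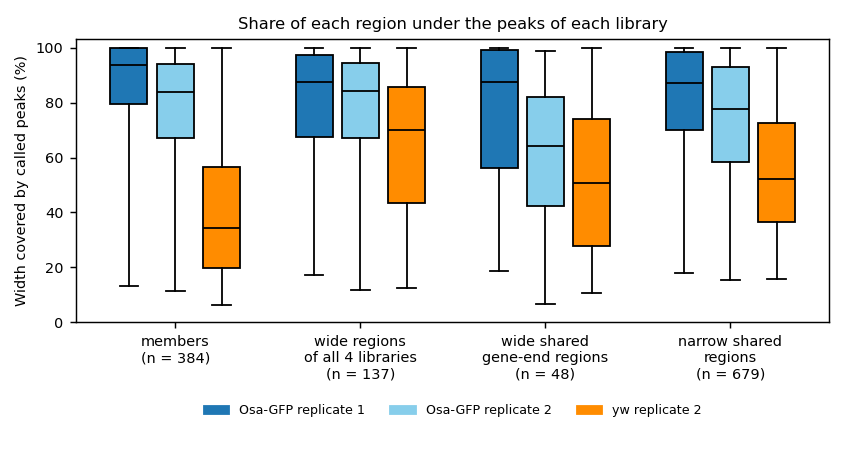
Percent of each region's width covered by the called peaks of Osa-GFP replicate 1, Osa-GFP replicate 2 and yw replicate 2, for the 384 members and 3 other sets of regions. Boxes give quartiles and median, and whiskers the lowest and highest region. The members have the lowest yw replicate 2 median of the 4 sets, 34.3%, beside Osa-GFP medians of 93.6% and 83.9%.

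The 6 widest members can be read peak by peak, and the one near Rh5 departs from this layout. The widest lay inside expanded (ex), which encodes an upstream regulator of the Hippo growth pathway, on 2L at 438631 to 442776. A single Osa-GFP replicate 1 peak spanned all 4146 bp of it, 3 Osa-GFP replicate 2 peaks covered 3722 bp, and 4 yw replicate 2 peaks covered 1287 bp. The next, of 3801 bp, lay inside CG1677 on X at 7299648 to 7303448, and its nearest gene end was that of brinker (brk), which encodes the repressor of Dpp target genes. The Osa-GFP libraries each gave 1 peak there, of 3801 and 3684 bp, and yw replicate 2 gave 5 peaks of 240 to 648 bp. A region of 3724 bp in pipsqueak (psq), a gene for a BTB-domain DNA-binding protein, lay on 2R at 10596117 to 10599840. A region of 3581 bp lay inside lbk on 2R at 16153671 to 16157251. A region of 3285 bp lay inside thickveins (tkv), which encodes a receptor of Dpp, on 2L at 5251513 to 5254797, where yw replicate 2 covered 17.2% of the width. At the remaining one, 3328 bp outside genes near Rh5 on 2L, the libraries were alike in height: the highest fold given by the peak caller was 15.6 and 13.0 for the Osa-GFP libraries and 15.5 for yw replicate 2. Its yw replicate 2 peaks measured 592, 735, 916 and 161 bp. Those of Osa-GFP replicate 1 measured 224, 1995 and 664 bp, and those of Osa-GFP replicate 2 1104 and 407 bp. Thus yw replicate 2 covered more of this member than Osa-GFP replicate 2 did. Where values are given for Osa-GFP and yw without a replicate number, they are those of Osa-GFP replicates 1 and 2 in that order and of yw replicate 2. The caller's fold, here and below, is the authors' own value for a peak, a ratio of fragments over background at its summit, and the highest in a member is given for each library.

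**Figure D2:**
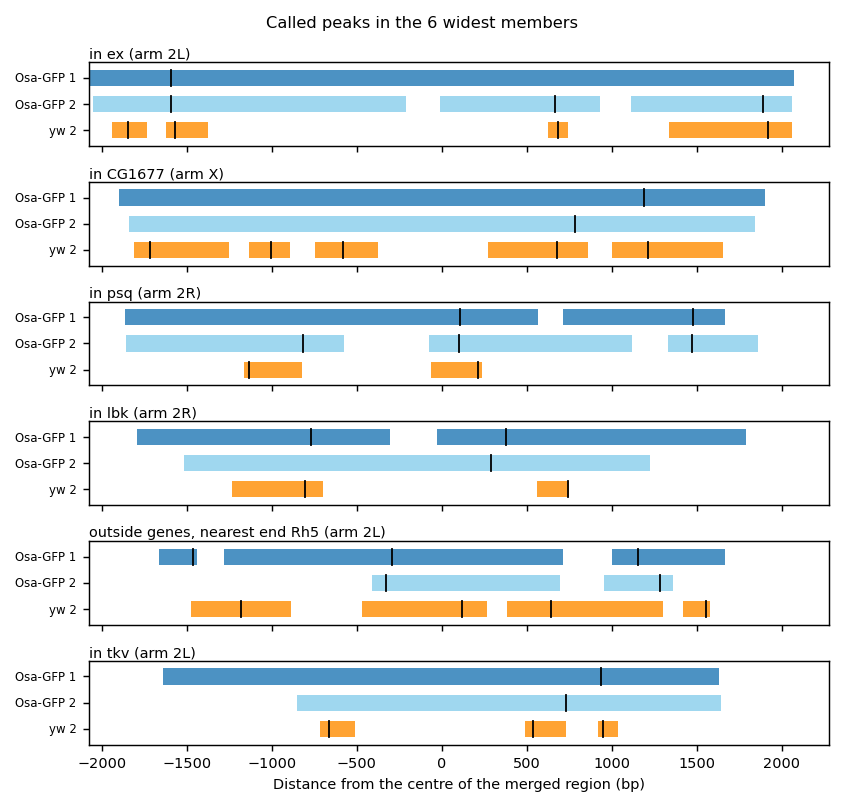
Called peaks in the 6 widest members, as distance in bp from the centre of the merged region. Bars are peaks of Osa-GFP replicates 1 and 2 above those of yw replicate 2, and black ticks are summits. In the member inside ex, 1 Osa-GFP replicate 1 peak spans 4146 bp and the 4 yw replicate 2 peaks lie under it.

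Highest folds ranged from 3.40 to 61.2 over the members in Osa-GFP replicate 1 (median 16.3), from 3.42 to 47.2 in Osa-GFP replicate 2 (median 13.0) and from 3.38 to 35.1 in yw replicate 2 (median 6.08). These medians correspond to 23, 18 and 8 fragments at the summit. Within its own list, the median member's highest peak stood at the 91.0th percentile (Osa-GFP replicate 1), the 88.9th (Osa-GFP replicate 2) and the 65.7th (yw replicate 2). In yw replicate 2 the members' lower quartile was at the 43.5th percentile, and the median of 65.7 was the same in the narrower shared regions away from gene ends. Width was part of the rule, and its part in these places was not tested. Across the 384 members the folds of the 2 Osa-GFP libraries ran together (Spearman's rho 0.892), while those of yw replicate 2 did so less with either (0.170 and 0.185). These values describe the members, which share the rule that chose them and, within a library, its depth. Members centred inside genes and outside genes were alike, with median folds of 16.3 and 16.3 for Osa-GFP replicate 1, 13.0 and 11.6 for Osa-GFP replicate 2, and 6.08 and 6.08 for yw replicate 2.

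The rule asked only for a yw replicate 2 peak somewhere in a member, not at the Osa-GFP summit. The highest summit of Osa-GFP replicate 1 lay in a yw replicate 2 peak at 266 members (69.3%, 64.5% to 73.7%), and that of Osa-GFP replicate 2 at 261 members (68.0%, 63.1% to 72.4%). At the other members the yw peak lay to the side of the summit. In the other direction, the highest yw replicate 2 summit lay in a peak of Osa-GFP replicate 1 at 356 members and of Osa-GFP replicate 2 at 343. The median distance between the highest summits of the 2 Osa-GFP libraries was 73.5 bp, against 134 bp from Osa-GFP replicate 1 and 152 bp from Osa-GFP replicate 2 to yw replicate 2. Summits lay within 100 bp of each other at 228 members (59.4%) for the Osa-GFP pair, at 165 (43.0%) for Osa-GFP replicate 1 with yw replicate 2 and at 154 (40.1%) for Osa-GFP replicate 2 with yw replicate 2. The nearest pair of summits, which cannot lie farther apart than the highest ones, gave medians of 56, 94.5 and 102 bp in the same order. yw replicate 2 had 8 fragments at the median highest summit, so its summits are placed from fewer fragments than those of the Osa-GFP libraries, and the part this plays was not tested.

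**Figure D3:**
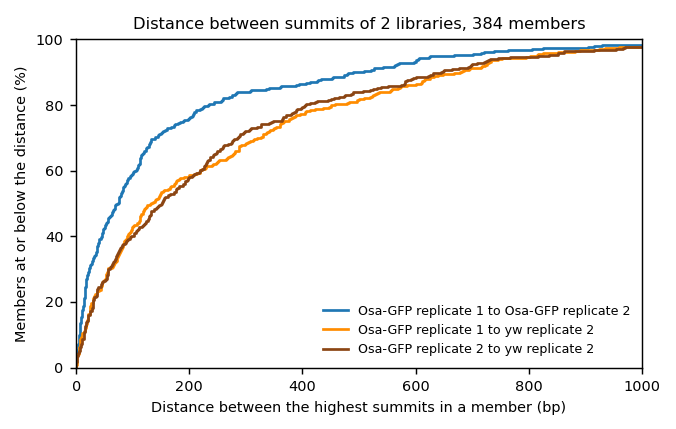
Cumulative percent of the 384 members by the distance in bp between the highest summits of 2 libraries, shown up to 1000 bp. The line for the Osa-GFP pair lies left of both lines to yw replicate 2, with medians of 73.5, 134 and 152 bp.

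The 12 members that ranked high in all 3 lists at once, ordered by the worst of their ranks, included several at genes of signalling pathways. The first lay in anterior open (aop), which encodes the ETS repressor that EGFR signalling inactivates, on 2L at 2162297 to 2163944, with 38 and 35 summit fragments in the Osa-GFP libraries and 32 in yw replicate 2. The region in Dyrk2, a protein kinase gene, on 2L at 14226182 to 14226983 had 38 and 45 fragments in the Osa-GFP libraries and 51 in yw replicate 2. The third was the widest member, in ex, with 43 and 33 in the Osa-GFP libraries and 27 in yw replicate 2. These were different sites: the highest yw summit lay 3512 bp from the highest summit of either Osa-GFP library. The yw peak at those Osa-GFP summits had 8 fragments, and the Osa-GFP replicate 2 peak at the highest yw summit had 21. In aop the highest yw summit lay 716 and 732 bp from those of Osa-GFP replicates 1 and 2. By highest summit, wherever in the member it lay, the yw value was the lowest of the 3 libraries in aop and ex and the highest in Dyrk2.

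The largest gap among the 12 was in schnurri (shn), which encodes a zinc finger cofactor of the Dpp pathway, on 2R at 11182535 to 11183340, with 79 and 68 fragments in the Osa-GFP libraries and 24 in yw replicate 2. In capicua (cic), whose HMG-box repressor is also inactivated by EGFR signalling, the region on 3R at 20257084 to 20259225 had 51 and 43 fragments in the Osa-GFP libraries and 22 in yw replicate 2. In the receptor gene Notch (N), on X at 3150618 to 3151559, it had 42 and 43 in the Osa-GFP libraries and 22 in yw replicate 2. The yw value was the lowest of the 3 libraries at each of these, as it was near CG6163 on 3L (57 and 45 in Osa-GFP, against 21 in yw) and in Bicra on 3R (30 and 31 in Osa-GFP, against 21 in yw). Bicra is named after a human subunit of a SWI/SNF complex that lacks the Osa homologues.

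At 3 others yw replicate 2 had the most fragments. Outside the glypican gene dally, whose product shapes the spread of Dpp and Wingless, on 3L at 8824665 to 8826032, there were 33 and 28 fragments in the Osa-GFP libraries and 43 in yw replicate 2. In bowl, a gene for a zinc finger protein of the Odd-skipped family, on 2L at 3772903 to 3774121, there were 37 and 27 in the Osa-GFP libraries and 39 in yw replicate 2. In drn on 3R at 9347605 to 9348709 there were 30 and 35 in the Osa-GFP libraries and 42 in yw replicate 2. Near CG18404 on 3R the values lay close together, at 35 and 38 in the Osa-GFP libraries and 34 in yw replicate 2. In all 12 members both Osa-GFP summits lay in a yw replicate 2 peak, but in ex this was not the highest yw peak. A high place in all 3 lists was what ordered these members, so their values do not stand for the rest.

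**Figure D4:**
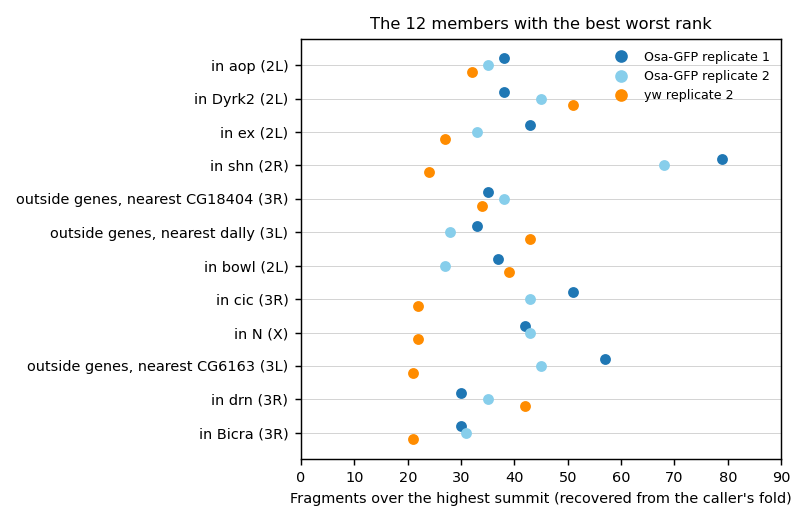
Fragments over the highest summit, recovered from the caller's fold, in Osa-GFP replicate 1, Osa-GFP replicate 2 and yw replicate 2 for the 12 members that rank highest in all 3 lists. yw replicate 2 runs from 21 fragments to 51, and its point lies far left of the Osa-GFP points in shn (79 and 68 in Osa-GFP, 24 in yw) and right of them in Dyrk2 (38 and 45 in Osa-GFP, 51 in yw).

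By location, 260 members (67.7%, 62.9% to 72.2%) were centred inside the span of a protein-coding gene. The gene table gives spans only, so whether a member lies in an intron, exon or UTR is not known here. The median distance to the nearest gene end was 6171 bp, and 78 members (20.3%) lay in a gene while a different gene's end was nearer. Only 7 members (1.82%) reached a gene end with their flank. On the arms, 61 members lay on 2L, 79 on 2R, 73 on 3L, 89 on 3R, 3 on 4 and 79 on X, where the X share of 20.6% stands beside 19.3% of all regions with peaks of both Osa-GFP libraries, 27.7% of the wide regions of all 4 libraries and 15.8% of protein-coding genes.

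Some members lay in groups, and most stood alone: 238 had no other member within 10000 bp, and the median gap to the nearest other member was 24115 bp. Another member was within 5000 bp at 116 members (30.2%), and an Osa-GFP-specific region, one with peaks of both Osa-GFP libraries and no yw library, was within 5000 bp at 194 (50.5%) and within 1000 bp at 99 (25.8%). Joining members up to 10000 bp apart gave 62 stretches with 146 members, and 15 of the stretches held 3 or more. The richest lay in scribbler (sbb), which encodes a transcriptional corepressor, on 2R at 18329529 to 18356742, with 6 members and 4 Osa-GFP-specific regions in 27214 bp. A stretch of 5 members lay in shn on 2R at 11182535 to 11204023, with 2 specific regions. The Enhancer of split complex, a cluster of Notch target genes, held 4 members on 3R at 26002207 to 26021209, and 4 more lay around Rh5 on 2L at 12003245 to 12014214.

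A few members lay far from any gene end, some of them inside long genes. Of the 14 centred over 50000 bp from a gene end, 5 were assigned to ATbp on X between 23329672 and 23511220 and 3 to Myo81F on 3R between 63950 and 288528, at distances of 221746 to 502364 bp. Folds at these 8 were below the members' median in both Osa-GFP libraries, at 4.08 to 7.47 and 5.48 to 8.22, against 3.38 to 9.45 in yw replicate 2, so that the genotypes overlapped. Others of the 14 were inside hth and fru and near vvl and had Osa-GFP replicate 1 folds of 6.80 to 31.9. The 14 had medians of 7.13 and 7.53 in the Osa-GFP libraries and 5.74 in yw replicate 2. They made up 3.65% of the members, while 29 of the 137 wide regions with peaks of both yw libraries (21.2%) lay this far out.

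By nearest gene end the 384 members belonged to 290 genes, which is 2.08% of the 13922 protein-coding genes on the arms; by span, 189 genes held a member centre, or 1.36%. Of the 290 genes, 64 had 2 or more members and 21 had 3 or more. Genes whose span held a member had a median length of 31.9 kb, against 2.16 kb for all protein-coding genes, and no correction for length was made. A specific region was assigned to 182 of the 290 genes (62.8%), while 954 of all 13922 protein-coding genes were nearest to such a region. The 182 genes are 19.1% of the 954, beside the 2.08% of all protein-coding genes that were nearest to a member. These shares carry no correction for the length of genes or flanks either.

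The genes nearest to the most members were ATbp, whose 5 lie far from its ends as given above, and psq. psq had 5 members, all inside the gene, with Osa-GFP replicate 1 folds of 10.9 to 29.9, Osa-GFP replicate 2 folds of 9.59 to 23.3 and yw replicate 2 folds of 6.08 to 10.1. sbb held 7 in its span, 4 of them nearest to its own ends. The strongest of the 7, on 2R at 18306818 to 18308301, had folds of 50.3 and 43.1 in the Osa-GFP libraries and 8.78 in yw replicate 2, and the next, at 18345548 to 18346553, had 38.1 and 26.0 in the Osa-GFP libraries and 7.43 in yw replicate 2. The members of sbb ranged from 8.83 to 50.3 in Osa-GFP replicate 1 and from 3.38 to 8.78 in yw replicate 2.

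broad (br), a BTB zinc finger gene at the head of the ecdysone response, was nearest to 4 members on X between 1565703 and 1617673. Its strongest, at 1577178 to 1579126, had folds of 21.7 and 16.4 in the Osa-GFP libraries and 13.5 in yw replicate 2. homothorax (hth), a homeodomain gene of the wing hinge, had 4 members between 10473677 and 10589629 on 3R, with Osa-GFP replicate 1 folds of 6.80 to 34.0 and yw replicate 2 folds of 4.05 to 11.5. At the hth member with the highest Osa-GFP folds (34.0 and 27.4 in Osa-GFP, against 8.10 in yw) neither Osa-GFP summit lay in a yw peak. toutatis (tou), which encodes a bromodomain protein of chromatin, had 4 members, with folds of 16.3 to 29.9 (Osa-GFP replicate 1), 11.6 to 19.9 (Osa-GFP replicate 2) and 3.38 to 7.43 (yw replicate 2). The 4 members assigned to the poly(A) polymerase gene Gld2 all lay inside SKIP, and the widest was 3259 bp, with folds of 23.1 and 17.1 in the Osa-GFP libraries and 6.75 in yw replicate 2.

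Genes with 3 members included other transcription factors of the disc and of other tissues. The T-box gene bifid (bi), a Dpp target, had Osa-GFP replicate 1 folds of 6.12 to 25.1, Osa-GFP replicate 2 folds of 7.53 to 13.7 and yw replicate 2 folds of 4.05 to 10.1. In the weakest of the 3 the yw fold was the highest of the libraries (6.12 and 7.53 in Osa-GFP, against 10.1 in yw). grainyhead (grh), a regulator of epithelial genes, had its strongest member on 2R at 17833607 to 17834615 (31.3 and 30.1 in Osa-GFP, against 6.75 in yw). fruitless (fru), known for sex-specific nervous system development, had its strongest on 3R at 18473011 to 18474557 (31.9 and 21.9 in Osa-GFP, against 7.43 in yw). Tet, a gene of the TET dioxygenase family, had members with Osa-GFP replicate 1 folds of 13.6 to 18.3 and yw replicate 2 folds of 5.40 to 8.10.

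osa itself, the gene of the tagged protein, held 3 members. The strongest, on 3R at 17700082 to 17702489, had folds of 34.0 and 21.2 in the Osa-GFP libraries and 11.5 in yw replicate 2. The one nearest to an end of osa, centred 603 bp from it at 17717175 to 17718319, had 7.47 and 8.22 in the Osa-GFP libraries and 18.2 in yw replicate 2, whose peaks covered all of its width. The order of the libraries was thus opposite at these members. The remaining genes with 3 were zip, which encodes the heavy chain of non-muscle myosin II, heca, Reg-2, Boh2, Myo81F, CG13229, CG14589, CG43192 and CG43245. The members assigned to CG13229, CG14589 and CG43192 lay inside shn, the ecdysone receptor gene EcR and the Wingless co-receptor gene arrow (arr). Those of Boh2 lay inside Ca-beta, and those of CG43245, heca and Reg-2 outside protein-coding genes.

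In 25 lists of pathway genes, regulators and cell type markers, 59 of 368 genes (16.0%) were nearest to a member, against 2.08% of all protein-coding genes, and 54 (14.7%) held one in their span, against 1.36%. These shares are a description, with no correction for the length of the genes or of their flanks. The lists were written with earlier results of these data known, so their shares are not independent of the data. A place near list genes was not particular to members. In the regional identity list, 9 genes were nearest to a member, 13 to a narrower shared region and 10 to a wide Osa-GFP-specific region, both away from gene ends. The counts in the same order were 8, 8 and 4 for the EGFR list and 7, 5 and 0 for the Dpp list.

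Of the 19 genes of the Dpp pathway, which patterns the wing along its anterior-posterior axis, 7 were nearest to a member and 7 held one. The ligand gene dpp had 2 members outside its span, with folds of 16.3 and 10.3 in Osa-GFP and 4.05 in yw and of 10.2 and 11.0 in Osa-GFP and 14.2 in yw. Inside the receptor gene tkv lay 2 members with folds of 24.5 and 19.9 in Osa-GFP and 6.75 in yw and of 17.0 and 15.7 in Osa-GFP and 6.75 in yw. The cofactor gene shn held 5, from 17.7 to 54.4 in Osa-GFP replicate 1, 13.0 to 47.2 in Osa-GFP replicate 2 and 4.73 to 16.9 in yw replicate 2. Among modulators outside the cell, sog, cv-2 and dally each had a member assigned and magu, which encodes a secreted feedback regulator, held 2. Among targets, the inhibitory Smad gene Dad had 2, the stronger with folds of 23.8 and 21.9 in Osa-GFP and 7.43 in yw, and brk had the one of 3801 bp (34.7 and 21.2 in Osa-GFP, against 10.8 in yw). Members thus occurred at the ligand, a receptor, the cofactor, modulators and targets of this pathway.

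Of 23 EGFR pathway genes 8 were nearest to a member. The receptor gene Egfr had 2 members assigned and 3 in its span, the strongest with folds of 23.1 and 16.4 in the Osa-GFP libraries and 6.75 in yw replicate 2. The ligand gene vein (vn) had a member 6330 bp from its end (16.3 and 11.0 in Osa-GFP, against 5.40 in yw). In the kinase gene Raf a member of 2450 bp had folds of 20.4 and 13.7 in Osa-GFP, against 6.08 in yw, and the ERK gene rl had one at low folds of 4.76 and 6.85 in Osa-GFP, against 7.43 in yw. The other genes encode antagonists: the repressor genes aop and cic, sprouty (sty), whose protein inhibits receptor signalling (16.3 and 18.5 in Osa-GFP, against 6.75 in yw), and kek1, an inhibitor of the receptor (14.3 and 18.5 in Osa-GFP, against 6.75 in yw). The cic member was described above. The region in aop described above has the end of CG15382 nearest to it, and the member counted for aop here is another one. Among the members of these genes with values given, the yw replicate 2 fold was the lowest of the 3 libraries at each but that of rl.

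Of 24 Notch pathway genes 6 were nearest to a member. The ligand gene Serrate (Ser) had 2, the stronger on 3R at 27185764 to 27186893 with folds of 38.7 and 39.0 in the Osa-GFP libraries and 6.75 in yw replicate 2. The receptor gene N had the one given above, and the nuclear coactivator gene mam had one with folds of 19.0 and 13.0 in Osa-GFP, against 7.43 in yw. fringe (fng), which encodes the enzyme that modifies Notch at the wing margin, had a member with folds of 8.83 and 8.22 in the Osa-GFP libraries and 16.9 in yw replicate 2. The target genes E(spl)mgamma-HLH and E(spl)m3-HLH, which encode bHLH repressors, had one each (23.1 and 19.9 in Osa-GFP, against 10.1 in yw, and 17.0 and 15.7 in Osa-GFP, against 4.73 in yw). Among these members fng alone had its highest fold in yw replicate 2.

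Of 26 Wg pathway genes 4 were nearest to a member and 5 held one. The co-receptor gene arr held 3, with Osa-GFP replicate 1 folds of 9.51 to 23.8, Osa-GFP replicate 2 folds of 8.90 to 20.5 and yw replicate 2 folds of 6.08 to 18.9. The receptor gene frizzled 2 (fz2) had one 31074 bp from its nearer end (27.9 and 16.4 in Osa-GFP, against 8.10 in yw). The glypican gene dlp had 2, and their folds differed in pattern: 25.8 and 22.6 in Osa-GFP, against 7.43 in yw at one, and 16.3 and 5.48 in Osa-GFP, against 16.9 in yw at the other, where the Osa-GFP replicates differed widely from each other. The kinase gene shaggy (sgg), the fly GSK3, had one with folds of 17.0 and 13.0 in Osa-GFP, against 8.10 in yw.

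Of 21 Hippo pathway and growth genes 4 were nearest to a member. The growth regulator Myc had 2, the stronger of 2012 bp on X at 3407523 to 3409534 with folds of 35.3 and 23.3 in the Osa-GFP libraries and 6.08 in yw replicate 2. Diap1, an inhibitor of caspases and a target of the pathway, had one with folds of 40.8 and 24.0 in Osa-GFP, against 9.45 in yw. Tgi, whose product competes with the coactivator Yorkie, had one at 16.3 and 14.4 in Osa-GFP, against 10.8 in yw, and the protocadherin gene dachsous (ds) one at 20.4 and 18.5 in Osa-GFP, against 6.08 in yw. By span, ex and dachs came in and ds dropped out. The TEAD factor gene scalloped (sd), the partner of Yorkie and of the wing selector Vestigial, was listed with the regional identity genes and held a member with folds of 31.9 and 28.8 in Osa-GFP, against 8.78 in yw.

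**Figure D5:**
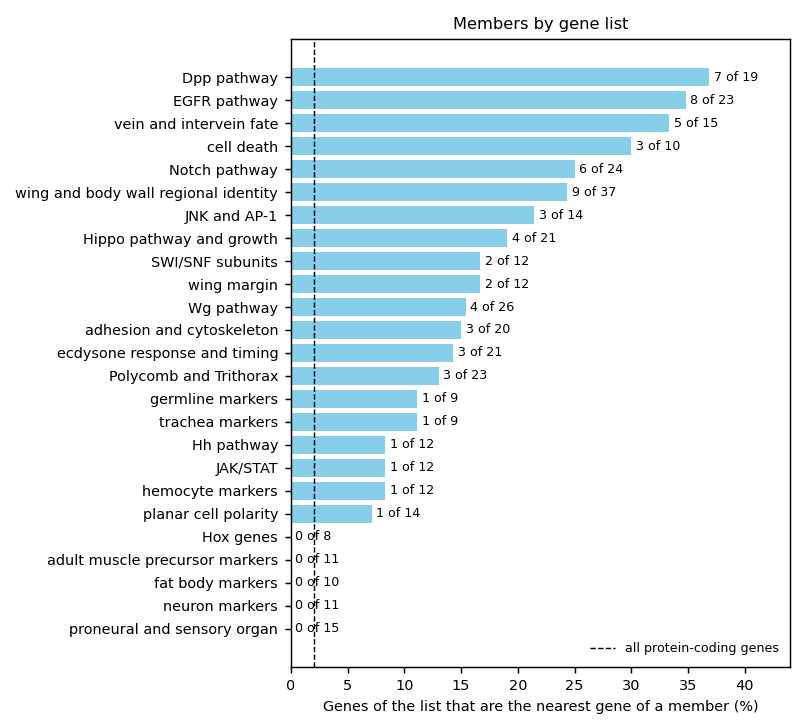
Percent of the genes of each of 25 lists that are the nearest protein-coding gene of a member, with the counts beside the bars. The dashed line gives the share of all protein-coding genes, 2.08%. The Dpp list is highest with 7 of 19 genes, and 5 lists have none.

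The list of wing and body wall regional identity had 9 of 37 genes nearest to a member, led by hth with 4, bi with 3 and the zinc finger homeobox gene zfh2 with 2. Both zfh2 members lay inside the gene on arm 4, with folds of 12.9 and 11.0 in Osa-GFP and 8.10 in yw and of 17.0 and 15.1 in Osa-GFP and 6.08 in yw. At the posterior selectors, engrailed (en) had a member with folds of 18.3 and 15.1 in Osa-GFP, against 8.10 in yw, while the one in invected (inv) had 11.6 and 6.16 in the Osa-GFP libraries and 20.3 in yw replicate 2. The Iroquois gene mirror (mirr) had one with folds of 26.5 and 19.9 in Osa-GFP, against 5.40 in yw. Of 15 vein genes 5 had a member, and the POU gene ventral veins lacking (vvl) had 2, at 18.3 and 11.6 in Osa-GFP and 3.38 in yw and 16.3 and 11.0 in Osa-GFP and 4.05 in yw. At the vein gene knirps (kni) the yw fold was the highest, at 9.51 and 8.22 in the Osa-GFP libraries and 15.5 in yw replicate 2.

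Among 21 genes of the ecdysone response, br, the ETS gene Eip74EF and the transporter gene E23 were nearest to members, and EcR and the nuclear receptor gene Eip75B held members in their spans. The 3 in EcR had Osa-GFP replicate 1 folds of 16.3 to 27.2, Osa-GFP replicate 2 folds of 18.5 to 24.0 and yw replicate 2 folds of 4.73 to 8.78. The 2 in Eip74EF differed, with 25.8 and 19.9 in Osa-GFP, against 8.78 in yw, at one and 11.6 and 8.22 in Osa-GFP, against 15.5 in yw, at the other. Among 12 SWI/SNF subunit genes, osa and the actin gene Act5C were nearest to members. Among 23 Polycomb and Trithorax genes, psq had 5, and ph-p, a gene of the PRC1 complex, and Su(z)2 had 1 each; the ph-p member had 9.51 and 11.6 in the Osa-GFP libraries and 15.5 in yw replicate 2. The remodeler gene kismet (kis) held 2 in its span.

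The cell death list had 3 of 10 genes: Diap1 and the activators hid and rpr, whose members had folds of 9.51 and 8.90 in Osa-GFP, against 6.75 in yw, and of 20.4 and 16.4 in Osa-GFP, against 5.40 in yw. The adhesion and cytoskeleton list had 3 of 20, namely zip with 3, kek5 with 2 and the integrin gene inflated (if) with 1, and the JNK list had 3 of 14. These were aop, the TNF receptor gene wgn and ras, which encodes IMP dehydrogenase, so that aop and ras are not core genes of that pathway. The wing margin list had 2 of 12 (Ser and elB). The Hh list had only ptc, the receptor gene, of 12 genes, with low yw values (13.6 and 9.59 in Osa-GFP, against 3.38 in yw). The JAK/STAT list had Socs36E of 12, and the planar polarity list had ds of 14.

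In 5 short lists no gene was nearest to a member, from which, at a share of 2.08% over all protein-coding genes, nothing can be read. Of 15 proneural genes, 8 Hox genes, 11 neuron markers, 10 fat body markers and 11 adult muscle precursor markers, none was nearest to a member, although Antp and the muscle precursor genes kirre and twi held one in their spans. Among markers of other tissues, trachea had vvl of 9, which is also a vein gene, hemocytes had the scavenger receptor gene crq of 12, and germline had ovo of 9. The crq assignment was the member inside ex, and the vvl members were those counted for veins. The peak lists give no share of cell types.

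yw replicate 2 covered a smaller percent of the width in members than in 3 other sets of shared regions. The median was 34.3% in members, against 70.0% in the 137 wide regions with peaks of both yw libraries, 50.9% in the 48 wide shared regions at gene ends and 52.0% in the 679 narrower shared regions away from gene ends. In bp covered, the medians were 427.5 in members, against 879, 534.5 and 240 in the same order. Members thus had more bp covered than the narrower regions, and the width that divides these values was part of the rule. The share with the highest Osa-GFP replicate 1 summit in a yw replicate 2 peak was 69.3% (64.5% to 73.7%) in members, against 86.9% (80.2% to 91.5%) in the first of these sets, 79.2% (65.7% to 88.3%) in the second and 72.2% (68.7% to 75.4%) in the third. The first set was chosen by a yw replicate 1 peak as well. Its median yw replicate 2 fold was 15.5, against 6.08 in members. The intervals cover counting error only, and no difference between sets is read from them. Members were centred in genes at 67.7%, against 55.6% (48.1% to 62.8%) for the 171 wide Osa-GFP-specific regions and 69.4% (65.8% to 72.7%) for the narrower shared regions. The share was 56.9% for the wide regions with peaks of both yw libraries and 56.25% for the wide shared regions at gene ends. Another member lay within 5000 bp at 30.2% of members, against 21.2%, 14.6% and 18.3% of the 3 shared sets and 16.4% of the specific ones. For any other region with peaks of both Osa-GFP libraries, the share was 76.8% of members. It was 86.1%, 47.9% and 66.1% of the 3 shared sets in the same order and 69.0% of the specific ones. An Osa-GFP-specific region lay within 5000 bp at 50.5% of members, against 56.1% of the wide specific regions. In the 3 shared sets, in the same order, this held for 36.5%, 22.9% and 42.0%. The sets were cut by the same peak calls that are compared here, so these differences were not tested.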

How the data were processed

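Anti-GFP CUT&RUN peaks were analysed from 2 Osa-GFP and 2 yw wing disc libraries, with 1 deposited peak list each on build dm6. Per the submitters' processing notes, MACS2 2.1.2 and deepTools 2.4.1 were used together with Bowtie2 2.3.4.1, Picard 2.2.4 and SAMtools 1.10. The deposited peak names carry 1 library each, so peaks were called per library. The calling threshold is not given in the sources used here, and a stricter or looser one would change widths and overlaps. The deposited fold is the ratio that the authors' caller gives for summit fragments against its background. The deposited p and q are −log10 values, and the deposited integer score was not used.

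Summit fragments and the background per position were recovered from the steps of the deposited folds, whole for 100% of peaks at a tolerance of 0.01. This background is the measure of depth, as total reads are unknown here. Peaks were merged at 1 bp overlap and classed with Python 3.11.15, pandas 2.3.3 and numpy 2.4.6, and figures were drawn with matplotlib 3.10.9. The recovery of fragments, the merge and the rule for members were tested on simulated data. All peaks of a simulated region had the same limits, so the joining of partly overlapping peaks was not tested. Nor were the classes of the other regions. Gene spans came from a RefSeq table on the same assembly, without strand, so gene ends were used in place of start sites. No genome sequence was used. Shares carry 95% Wilson intervals, which were computed with scipy 1.17.1, as were the rank correlations.

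Named were the 12 members best in the worst of their 3 ranks, the 6 widest, genes with 3 or more members, up to 4 genes per list and the 3 on either side of each threshold; other names were chosen after their values were seen. The members and the gene lists were chosen with earlier results of these data known. Alternatives changed width, distance, threshold, overlap, library and gene assignment.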

Additional observations from a re-analysis of the deposited data

How the results depend on the processing

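Of 68 values recomputed under alternatives, 57 stayed within 1.5 times the count reported or within the 95% interval of the share or median, and 11 moved. Among these were the median summit distances to yw replicate 2, at 94.5 and 102 bp with the nearest pair of summits. The cause of these changes was not tested beyond what each setting does by construction. The 384 members became 606 at a width of 600 bp or more, 252 at −log10 q of 5 or more and 138 at 10 or more, and 212 and 82 of the 384 were found again at these thresholds. Leaving out 1 library gave 263 to 518 members. The share with the highest Osa-GFP replicate 1 summit in a yw replicate 2 peak (69.3%) became 76.2% and 89.1% at the same thresholds, and leaving out 1 library gave 68.1% to 73.9%. The first is without Osa-GFP replicate 1 and uses the summit of Osa-GFP replicate 2, and the last is without yw replicate 1; there is no value without yw replicate 2. The 290 genes became 117 at −log10 q of 10 or more and 189 by gene span, and the 59 list genes became 29 at that threshold. The share centred inside genes ran from 63.1% to 70.3% over its alternatives. No paired analysis was possible because no result comes from a test. The median member has 8 fragments at its yw replicate 2 summit, and what the shallow yw replicate 1 would show at greater depth was not tested.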
